A study of Mus musculus with 8 samples.

Results

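Untreated Cullin 3 knockout (KO) macrophages were compared with untreated wild-type (WT) macrophages, to see which genes differ at rest when Cullin 3 is lost. The comparison was chosen by the sample titles and took 4 of the 8 samples of the series, 2 KO and 2 WT, none of them exposed to lipopolysaccharide (LPS). The other 4 samples, 2 of each genotype given LPS for 6 hours, entered through the shared estimate of the spread and as values set beside those at rest. All samples were bone marrow-derived macrophages of female mice aged 6 to 8 weeks. Growth had lasted 6 days in medium that L929 fibroblasts had conditioned, which secrete the macrophage growth factor CSF1. Total RNA of each sample was labelled with Cy3 and hybridised to 1 Agilent array, and all arrays lay on a single slide. The labels give the genotypes as Cullin 3 wildtype and Cullin 3 knockout. They do not state the strain, the part of the gene that was deleted, or a Cre line that deleted it. They also do not say that the replicates came from separate mice or cultures, so p-values here reflect no more than the scatter of these samples, possibly a technical one. The slide's row 1 held the WT arrays and its row 2 the KO arrays, and the effects of row and genotype cannot be told apart.

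CUL3 serves as the scaffold protein in one family of ubiquitin ligases. It holds the RING protein RBX1, which recruits the ubiquitin-loaded enzyme, and a BTB-domain adaptor, which picks the protein to be marked for degradation. The best known adaptor, KEAP1, presents the transcription factor NRF2 (gene Nfe2l2), which drives genes of glutathione synthesis, quinone detoxification, peroxide removal, NADPH supply and iron handling. In macrophages NRF2 also drives the scavenger receptor gene Marco, and its activity is known to affect inflammatory cytokine genes.

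Cul3 itself was represented by a single probe, and the largest rise of a gene well above background on every untreated array belonged to Gt(ROSA)26Sor, the noncoding transcript of a locus that is widely used to insert transgenes in mice. The labels mention no allele at that locus. The sequences of both probes, shown because they set the levels described next, are those of the array design (A_52_P47645 at chr1:80268109-80268168 and A_55_P2203051 at chr6:113020400-113020459 on mm9, both 60 bases).
Cul3: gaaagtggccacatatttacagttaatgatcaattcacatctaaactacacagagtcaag
Gt(ROSA)26Sor: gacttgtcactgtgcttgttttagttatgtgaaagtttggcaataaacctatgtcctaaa
Levels here and below are log2 signals less the array's own 75th percentile, so that 0 stands for the signal which 75% of spots did not exceed. Cul3 stood at 1.77 and 1.79 in the WT samples and at 1.38 and 1.28 in the KO samples, a difference of -0.45 ± 0.12 (SE, 2 samples a group). The KO samples were both lower than either WT sample, but the difference missed the threshold (limma, adjusted p = 0.112). After LPS the KO minus WT difference of Cul3 was -0.58. Because the deleted part is not known, the probe may lie outside it, and its level is no measure of how complete the loss was. Gt(ROSA)26Sor stood at -5.07 and -5.46 in WT and at 1.36 and 1.48 in KO cells, a rise of 6.68 ± 0.36 (adjusted p = 0.000992), with the groups far apart. After LPS its difference was 5.38.

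Array brightness was similar in both groups. The 75th percentile of the processed signal was 1174 and 1406 in the WT samples and 1557 and 1269 in the KO samples, and no spot was saturated. Of 59305 non-control spots, 66.8% and 69.7% were well above background in WT and 73.7% and 70.3% in KO. Spike-in probes also had a slightly higher mean log2 signal in the KO samples (11.75 and 11.61) than in WT (11.46 and 11.45). The part of this difference in the results was not tested. Over all genes, themselves no replicates, the 2 WT samples correlated at 0.995 and the 2 KO samples at 0.995.

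Of 27960 genes tested, 867 (3.1%) passed an adjusted p of 0.05 in limma, 582 higher in KO cells (2.08%) and 285 lower (1.02%). These shares are the background against which the gene groups below are read. The lists behind those groups were chosen with earlier results of these data known, so a larger share in them is no test. Taken by kind, all lists had larger shares called, from 8.27% in growth lists to 23.4% in lineage lists. The rises were larger than the falls. A rise of at least 1 on the log2 scale was called for 430 genes and one of at least 3 for 46, against 187 and 6 falls of those sizes. The median called rise was 1.30 and the median called fall was -1.18, while the median over all genes was 0.06. The groups did not overlap in 865 of the 867 called genes, so a lack of overlap in called genes below adds no support to the call. In 104 of the 582 higher genes neither WT array was well above background, and in 21 of the 285 lower genes neither KO array was. Probes of genome intervals and long noncoding RNAs, which carry no gene name, made up 4033 of the features tested, with 30 higher and 27 lower. The share of higher genes among those called, 67.1% here, depended on the values used. It was 55.8% with normexp background correction, 79.5% in the authors' unscaled values and 50.8% after each array of theirs was reduced by its 75th percentile. The unscaled values also moved the median over all genes to 0.17. Leaving out WT untreated replicates 1 and 2 and KO untreated replicates 1 and 2 in turn left 244, 150, 139 and 114 genes called, and 91 of the 867 genes (77 higher and 14 lower) were called in each of those 4 fits.

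**Figure D1:**
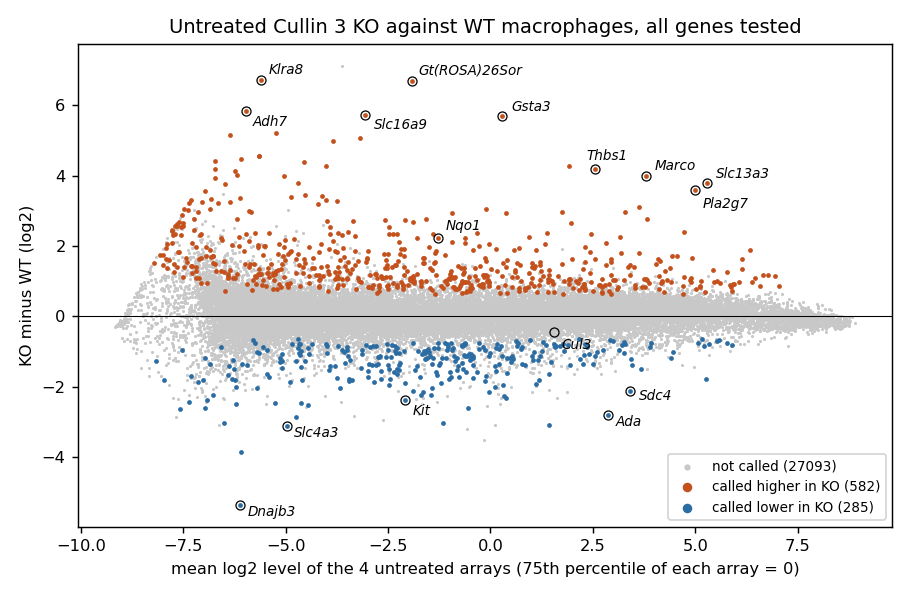
Difference between untreated KO and WT cells (log2, vertical axis) against the mean log2 level of the 4 untreated arrays (horizontal axis) for the 27960 genes tested, 1 point a gene, with the 582 genes called higher in orange and the 285 called lower in blue. Gt(ROSA)26Sor lies at 6.68, of the called genes the points of Klra8 (highest) and Dnajb3 (lowest) lie farthest out but rest on a group not well above background, and Cul3 lies at -0.45 among the genes not called.

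Genes of the antioxidant response were among the rises. Over 8 lists of redox genes, regulators and iron genes, 193 genes were measured, of which 25 rose and 2 fell (14% called, against 3.1% of all genes), with a median difference of 0.27. None of the 12 measured regulators of NRF2 was called (limma, 4 with an unadjusted p under 0.05). Nfe2l2 itself stood at 5.33 and 5.26 in WT and at 5.60 and 5.73 in KO cells (0.37 ± 0.22, adjusted p = 0.382), and its adaptor gene Keap1 at 3.1 and 3.31 against 3.28 and 3.12 (-0.01 ± 0.16). Bach1, whose product competes with NRF2 at its sites, differed by 0.50 ± 0.22 (adjusted p = 0.268), and Sqstm1, whose product p62 binds KEAP1, by -0.17 ± 0.28. The partners of Cullin 3 gave no call either. Of 43 measured adaptor, cullin and related genes, including Cul3, Rbx1 (-0.13 ± 0.13) and Nedd8 (-0.07 ± 0.13), 0 were called, against 8 with an unadjusted p under 0.05, and the largest difference in size, 0.96, was that of the guanine nucleotide exchange factor Arhgef12 (adjusted p = 0.0789).

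Among the glutathione transferases, which couple glutathione to reactive compounds, 4 of 24 rose and 0 fell. Gsta3 moved most, from -2.44 and -2.68 in the WT samples to 3.18 and 3.09 in the KO samples, a rise of 5.69 ± 0.34 (adjusted p = 0.00137). It was below the 75th percentile of the array in both WT samples and above it in both KO samples. The microsomal transferase gene Mgst2 went from 0.37 and 0.00 to 2.55 and 2.55 (2.36 ± 0.17, adjusted p = 0.00288), Gstm2 rose by 1.30 ± 0.14 and Gstp2 by 1.03 ± 0.17. Gstp2 has a near-identical neighbour, Gstp1, so its signal may include both, and its other probe differed by 0.20 and was not called. Other probes of Gstm2, at 1.01 and 0.78, were not called either. Gsta1, at -7.91 and -7.95 in WT and -6.63 and -5.59 in KO, was not well above background in WT and was not called (adjusted p = 0.0745).

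Glutathione synthesis showed 4 rises and 1 fall among 18 measured genes. The cystine transporter gene Slc7a11 stood at -5.05 and -5.14 in WT and at -2.60 and -2.89 in KO cells, a rise of 2.35 ± 0.18 (adjusted p = 0.00355). Both subunits of glutamate-cysteine ligase, which catalyses the rate-limiting step, were higher: the modifier Gclm went from 1.92 and 2.12 to 4.43 and 4.13 (2.26 ± 0.17, adjusted p = 0.00288), and the catalytic Gclc from 2.22 and 2.15 to 3.30 and 3.20 (1.07 ± 0.13, adjusted p = 0.0138). In each of these genes the KO samples lay above the WT samples with no overlap, as groups did in 865 of all 867 called genes. Ggt5, which splits the gamma-glutamyl bond of glutathione and its conjugates, rose by 3.46 ± 0.26. The fall was that of Chac1, whose product degrades glutathione inside the cell and which is a target of ATF4. It went from -0.80 and -0.71 to -2.10 and -2.12, a log2 difference of -1.35 ± 0.17 (adjusted p = 0.0146).

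In the thioredoxin and peroxide group 4 of 21 rose and 0 fell. Srxn1, which repairs overoxidised peroxiredoxins, rose by 1.63 ± 0.24 (adjusted p = 0.0264), catalase (Cat) by 1.36 ± 0.22, thioredoxin reductase Txnrd1 by 1.00 ± 0.16 and Osgin1 by 0.88 ± 0.13. Prdx1, a peroxiredoxin with a high level in both genotypes, stood at 7.30 and 7.38 in WT and at 7.80 and 7.64 in KO cells and was not called (0.38 ± 0.14, adjusted p = 0.207).

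Detoxification of quinones, carbonyls and alcohols gave 6 rises and 0 falls among 33 genes. The quinone reductase Nqo1 stood at -2.37 and -2.43 in WT and at -0.17 and -0.15 in KO cells, a rise of 2.24 ± 0.12 (adjusted p = 0.000992). The gap between the groups was many times the spread within either. The alcohol dehydrogenase Adh7 was not well above background in WT and stood at -2.90 and -3.22 in KO cells, at least 19-fold higher (adjusted p = 0.00146). Such a bound sets the brighter group against the dimmest signals still told from background on the same arrays. Epoxide hydrolase Ephx1 rose by 1.99 ± 0.15, the glucuronosyltransferase Ugt1a6a by 1.89 ± 0.19, carbonyl reductase Cbr3 by 1.73 ± 0.19 and biliverdin reductase Blvrb by 1.35 ± 0.13. The other Ephx1 probe differed by 0.72 and was not called. Cbr1, a close relative of Cbr3, differed by 0.06 ± 0.16.

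NADPH supply was split. The malic enzyme Me1 went from -0.02 and -0.39 in WT to 2.03 and 2.09 in KO cells (2.26 ± 0.24, adjusted p = 0.00834), while the pentose phosphate enzymes G6pdx (0.26 ± 0.17) and Pgd (0.25 ± 0.14) were not called. The mitochondrial folate enzyme Mthfd2, another target of ATF4, fell by 0.72 on the log2 scale (SE 0.13, adjusted p = 0.0414), with both KO samples (0.92 and 0.94) below both WT samples (1.69 and 1.60).

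Of 26 iron and haem genes 6 rose and 0 fell. The iron exporter ferroportin, Slc40a1, went from 0.27 and 0.05 to 2.01 and 2.10 (1.89 ± 0.16, adjusted p = 0.00412), and ceruloplasmin (Cp), the ferroxidase that works with it, from -2.35 and -2.15 to -0.34 and -0.54 (1.81 ± 0.14, adjusted p = 0.00352). Genes of iron uptake were higher as well. The transferrin receptor Tfrc rose by 0.84 ± 0.15, transferrin (Trf) by 0.91 ± 0.15, the phagosomal metal transporter Slc11a1 by 0.99 ± 0.14 and the first enzyme of haem synthesis, Alas1, by 1.01 ± 0.14, although its other probe differed by 0.26 and was not called. Other probes of Tfrc (0.64 and 1.03) and Trf (0.67) had the same sign and were not called. Haem oxygenase Hmox1, an NRF2 and BACH1 target, stood at 5.23 and 5.27 in WT and at 5.85 and 5.78 in KO cells. Its groups did not overlap, but the difference of 0.56 ± 0.12 was not called (adjusted p = 0.0623). The ferritin chains Fth1 (-0.20 ± 0.15) and Ftl1 (-0.37 ± 0.14) were not called either.

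Of the redox calls named, those of Gsta3, Mgst2, Slc7a11, Gclm, Ggt5, Nqo1, Adh7, Ephx1 and Cp were made without any 1 of the 4 untreated samples, and each other one ended without at least 1 of them. The calls of Gclc, Gstp2, Chac1, Srxn1, Cat, Txnrd1, Osgin1, Mthfd2, Alas1, Slc11a1, Tfrc and Trf ended whichever of the 4 was left out. Without WT untreated replicates 1 and 2 and KO untreated replicates 1 and 2 in turn, 17, 10, 11 and 9 genes of the 8 lists were called higher and 0 lower. After LPS the KO minus WT difference was 6.37 for Gsta3, 3.16 for Nqo1, 2.81 for Gclm and 1.83 for Slc7a11, while that of Mgst2 was 0.22 and that of Cp was 0.23.

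**Figure D2:**
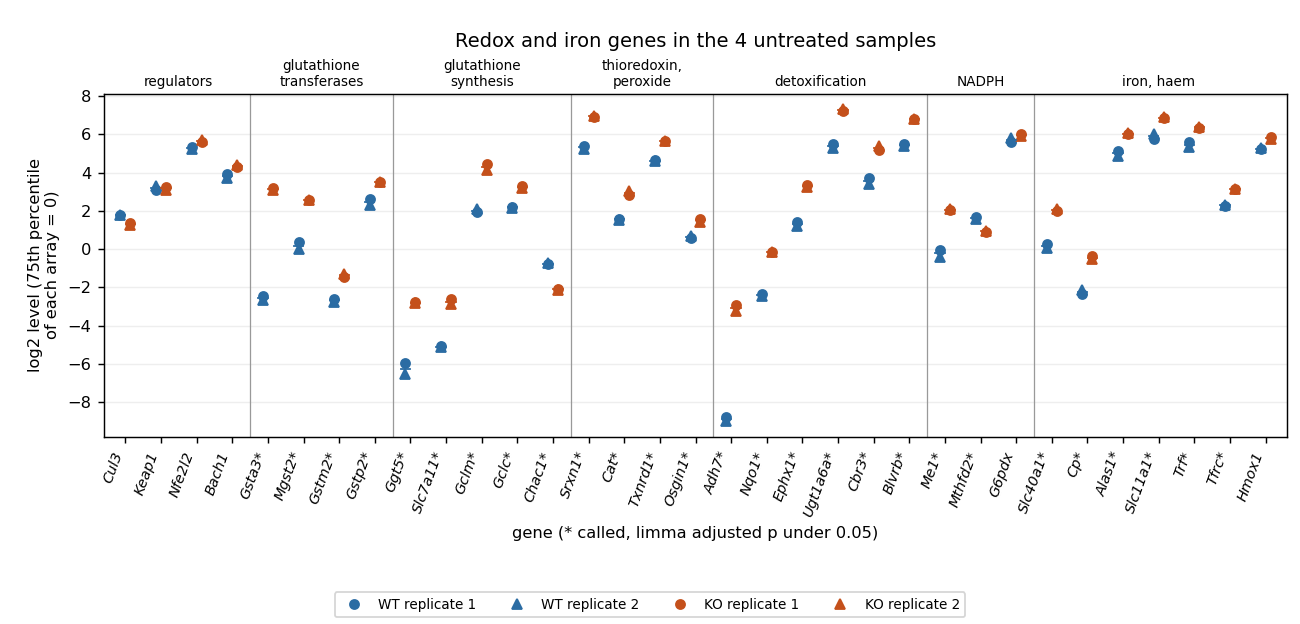
Log2 level above or below the array's 75th percentile (vertical axis) of redox and iron genes in the 2 untreated WT (blue) and 2 untreated KO samples (orange), with circles for replicate 1, triangles for replicate 2, short lines for group means and asterisks for called genes. Gsta3, Nqo1, Gclm and Slc40a1 are higher in both KO samples, Chac1 and Mthfd2 are lower, and Keap1 overlaps between the groups.

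The promoters of called redox genes were examined for TGACNNNGC, the core of the antioxidant response element that NRF2 binds with small MAF proteins. In windows from 250 bases before to 50 after the start (RefSeq, GRCm38.p6, both strands), 12.4% of all windows in the table and 13.8% of those of genes tested held it, as did 14.6% of those of genes called higher and 12.5% of those of genes called lower. It was found for 5 of the 21 called higher redox genes that had a window, Gsta3, Me1, Gclm, Srxn1 and Txnrd1. Elements farther from the start lie outside such windows. TGANTCA, the motif of AP-1 factors, which can overlap the former, was held by 6.16% of the windows of genes tested, 11.2% of those of genes called higher and 6.25% of those of genes called lower. Windows of 1 gene can overlap, so no test was made. The matches before the start of Gsta3 (chr1:21240424-21240512, plus strand) and Gclm (chr3:122245383-122245471, plus strand) are shown because, of the 4 largest called redox rises with a match, these hold it before the start. Capitals mark the match, which begins 121 bases before the start in Gsta3 and, on the opposite strand, 134 bases before it in Gclm.
Gsta3: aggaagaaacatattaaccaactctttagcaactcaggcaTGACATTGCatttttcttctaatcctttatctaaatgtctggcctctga
Gclm: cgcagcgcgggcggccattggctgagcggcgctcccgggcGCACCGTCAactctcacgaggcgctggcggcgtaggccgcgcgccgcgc

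Genes of surface receptors, adhesion and the matrix changed in both directions. Over the lists of scavenger receptors, C-type lectins, Fc and complement genes, integrins, and matrix genes and proteases, 26 of 144 genes rose and 4 fell (20.8% called). The scavenger receptor Marco, which binds bacteria and particles, stood at 1.96 and 1.62 in WT and at 5.87 and 5.70 in KO cells, a rise of 4.0 ± 0.27 (adjusted p = 0.00218). The groups lay more than 3 log2 units apart. Cd36, the receptor of oxidised lipoproteins and fatty acids, rose by 1.49 ± 0.12, the macrophage survival protein Cd5l by 1.66 ± 0.14, and Timd4, which binds phosphatidylserine on dying cells, was not well above background in WT and at least 7.45-fold higher in KO. Other scavenger receptors did not follow. Msr1 differed by 0.18 ± 0.13 and Cd68 by -0.40 ± 0.21, neither of them called.

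Of 27 C-type lectins 6 rose and 1 fell. Cd209f, of the DC-SIGN family, went from -5.63 and -5.82 in WT to -0.73 and -0.55 in KO cells (5.09 ± 0.45, adjusted p = 0.00527). Its close relatives on the array may share its signal. Clec4n, which codes for the fungal receptor Dectin-2, went from 3.53 and 3.52 to 5.97 and 5.87 (2.39 ± 0.27, adjusted p = 0.0109). The mannose receptor Mrc1 rose by 1.23 ± 0.16, the beta-glucan receptor Clec7a by 0.97 ± 0.16, Clec4b1 by 1.30 ± 0.21 and Clec4a2 by 0.82 ± 0.14. Clec4e, which codes for Mincle, differed by 0.15 ± 0.13, and the galactose lectin Mgl2 fell by 0.70 on the log2 scale (SE 0.12).

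Among matrix genes, proteases and their inhibitors 10 of 42 rose and 1 fell. Thrombospondin Thbs1, a matrix protein that activates TGF-beta and binds CD36, stood at 0.38 and 0.54 in WT and at 4.59 and 4.70 in KO cells, a rise of 4.19 ± 0.19 (adjusted p = 0.000859). The collagenase Mmp8 rose by 2.01 ± 0.22, Mmp13 by 1.11 ± 0.19 and the gelatinase Mmp9 by 1.23 ± 0.19. Mmp3 and Adamts4 were also called, but Mmp3 was not well above background on any untreated array and Adamts4 on only 1 KO array. The urokinase Plau fell by 0.85 (SE 0.16), and the macrophage elastase Mmp12 differed by -0.07 ± 0.24. Of the integrins and adhesion genes 3 of 32 rose and 2 fell. Itga9 rose by 1.44 ± 0.17, whereas Itgb7 went from 4.51 and 4.31 to 2.94 and 2.90 (-1.49 ± 0.14, adjusted p = 0.00602). Of 27 Fc and complement genes 3 rose, among them the complement inhibitors Cd55 (2.22 ± 0.22) and Cd59a (0.82 ± 0.15), and 0 fell. Of the surface and matrix calls named, those of Marco, Cd5l, Timd4 and Thbs1 were made without any 1 of the 4 untreated samples. Without WT untreated replicates 1 and 2 and KO untreated replicates 1 and 2 in turn, 8, 5, 6 and 6 of the 144 genes were called higher and 2, 1, 0 and 0 lower.

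Inflammatory genes were higher at rest in a minority of cases. Over 10 immune lists 33 of 269 genes rose and 6 fell (14.5% called). Of 33 cytokine genes 6 rose and 0 fell. The interleukin 1 gene Il1b went from 0.87 and 0.69 in WT to 2.16 and 2.02 in KO cells (1.31 ± 0.13, adjusted p = 0.00794), and Il1a, much dimmer, rose by 1.28 ± 0.24 (adjusted p = 0.0483). Il1f9, which codes for interleukin 36 gamma, was not well above background in WT and at least 5.85-fold higher in KO cells (-4.53 and -4.99). The anti-inflammatory cytokine gene Il10 rose by 1.02 ± 0.15, Ebi3, a subunit shared by interleukins 27 and 35, by 0.94 ± 0.12, and Tgfb3 by 1.01 ± 0.17. Tnf stood at 2.44 and 2.58 in WT and at 2.33 and 2.23 in KO cells and was not called (-0.23 ± 0.18, adjusted p = 0.496). Il6 was uneven, at -6.48 and -4.28 in WT and at -1.94 and -3.61 in KO cells, and was not called (adjusted p = 0.137).

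Of 26 chemokine genes 4 rose and 1 fell. Cxcl12, which holds haematopoietic cells in the marrow, rose by 1.91 ± 0.27 (its other probe differed by 0.55, not called), the platelet chemokine Ppbp by 1.67 ± 0.31, the eosinophil attractant Ccl24 by 1.34 ± 0.24 and Cx3cl1 by 0.77 ± 0.14. Ccl8 fell by a log2 change of -1.05 (SE 0.16). The monocyte chemokine Ccl2 (-0.26 ± 0.22) and the neutrophil chemokine Cxcl2 (-0.27 ± 0.20) were not called. Of 29 chemoattractant receptors 5 rose and 0 fell. The formyl peptide receptor Fpr1, which senses bacterial peptides, stood at 1.30 and 1.29 in WT and at 3.68 and 3.59 in KO cells, a rise of 2.34 ± 0.14 (adjusted p = 0.00144), and Fpr2 at 0.23 and 0.39 against 2.46 and 2.29 (2.07 ± 0.14, adjusted p = 0.00179). Neither gene overlapped between the groups. Cmklr1, the chemerin receptor, rose by 1.84 ± 0.33, Cxcr2 by 1.49 ± 0.20 and Cxcr6 by 1.11 ± 0.16. The monocyte receptor Ccr2 differed by -0.36 ± 0.24 and Cx3cr1 by 0.05 ± 0.24.

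Sensing and interferon genes were called in small numbers, though in larger shares than the 3.1% of all genes. These were 7.5% of interferon-stimulated genes, 6.25% of pattern recognition genes and 7.14% of NF-kB genes. They rest on 3, 2 and 2 calls, and with only the 4 untreated arrays 1, 0 and 1 genes were called. Of the interferon-stimulated genes 34 had a difference above 0, and their median was 0.24, against 0.06 over all genes. Of 40 interferon-stimulated genes 3 rose and 0 fell, Oasl1 by 1.30 ± 0.14, Ifi44 by 1.18 ± 0.15 and Ifi44l by 1.15 ± 0.17. Ifit1 (0.23 ± 0.21), Isg15 (0.23 ± 0.15) and Irf7 (0.06 ± 0.27) were not called. Of 32 receptors and adaptors of pattern recognition 2 rose and 0 fell, Tlr1 (0.78 ± 0.15) and Ly86 (0.93 ± 0.15), which codes for the RP105 partner MD-1, while the LPS receptor gene Tlr4 (0.29 ± 0.13), its co-receptor Cd14 (-0.33 ± 0.16) and Myd88 (0.04 ± 0.12) were not called. Of 28 NF-kB genes 2 rose and 0 fell, Bcl3 (0.70 ± 0.13) and the phosphatase gene Dusp2 (0.91 ± 0.14). Among 26 antigen presentation genes 1 rose and 1 fell. The costimulatory receptor Cd40 went from -1.01 and -0.95 to 0.82 and 0.57 (1.67 ± 0.16, adjusted p = 0.0064), and the MHC class II chain H2-Eb1 fell by 0.84 (SE 0.15). The class II genes Cd74 (5.60 and 5.80 in WT against 4.36 and 4.15 in KO) and H2-Ab1 (6.41 and 6.29 against 5.66 and 5.67) had lower values in both KO samples but were not called (adjusted p = 0.0645 and 0.0645).

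Genes used as markers of alternative activation were called often and in both directions, 7 higher and 3 lower of 22. Arg1, which hydrolyses arginine, stood at -5.12 and -4.44 in WT and at -2.30 and -2.60 in KO cells, a rise of 2.33 ± 0.24 (adjusted p = 0.00832). Coagulation factor F13a1 rose by 2.08 ± 0.14, Chil3 (Ym1) by 1.64 ± 0.26 and Mrc1, Cd36 and Ccl24 as given above. Those that fell were Irf4 (-0.96 ± 0.14), the folate receptor Folr2 (-0.77 ± 0.13) and Mgl2. The nitric oxide synthase Nos2 (0.37 ± 0.20) and the itaconate gene Acod1 (-0.10 ± 0.14) were not called, and the arginine transporter Slc7a2 fell by a log2 change of -1.24 (SE 0.15). Among 21 prostanoid and leukotriene genes 4 rose and 0 fell. Pla2g7, the secreted hydrolase of platelet-activating factor and oxidised phospholipids, stood at 3.25 and 3.17 in WT and at 6.77 and 6.83 in KO cells, a rise of 3.59 ± 0.12 (adjusted p = 0.00029). The prostaglandin receptor Ptger2 rose by 1.24 ± 0.12, the phospholipase Pla2g4a by 1.03 ± 0.19 and the prostaglandin dehydrogenase Hpgd by 0.77 ± 0.13. The cyclooxygenase Ptgs2 stood at -4.59 and -3.78 against -2.18 and -2.85 and was not called (adjusted p = 0.0518).

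Of the immune calls named, those of Il1f9, Fpr1, Fpr2, F13a1 and Pla2g7 were made without any 1 of the 4 untreated samples, and the others ended without at least 1. Without WT untreated replicates 1 and 2 and KO untreated replicates 1 and 2 in turn, 10, 7, 7 and 6 of the 269 genes were called higher and 0 lower. Without either KO LPS replicate, which enters only through the spread, 19 were called higher and 1 lower. The list medians of the inflammatory cytokines (0.19) and of the arginine and itaconate genes (-0.01) changed sign with normexp correction, the latter also in the authors' unscaled values.

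**Figure D3:**
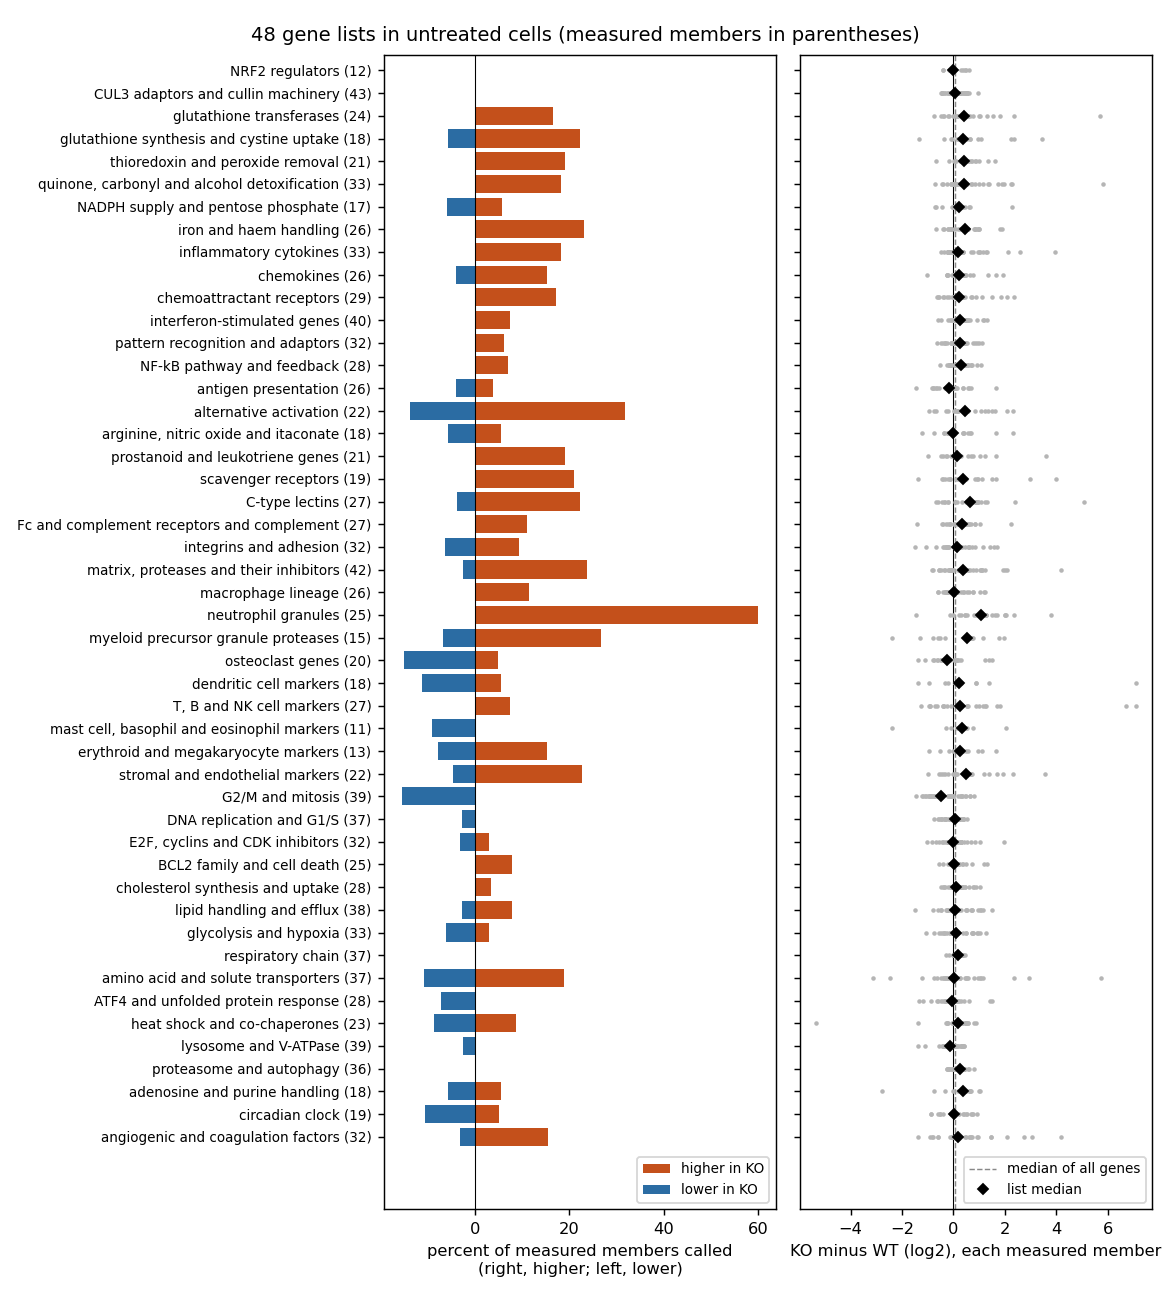
Left, percent of the measured members of each of 48 gene lists that were called higher (orange, to the right) or lower (blue, to the left) in untreated KO cells. Right, the log2 difference of each measured member (grey) with the list median (black diamond) and the median of all genes (dashed line). Neutrophil granule genes have the highest share called, 60.0%, and the G2/M list has falls only, 6 of 39.

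The samples were checked for markers of the labelled cell type and of others. The macrophage genes Csf1r (8.60 and 8.43 in WT, 8.16 and 8.37 in KO), Adgre1, which codes for F4/80 (7.21 and 6.95 against 7.15 and 7.35), and Cd68 (5.89 and 6.14 against 5.66 and 5.57) were bright in all 4 samples and not called. Of 26 macrophage lineage genes 3 rose and 0 fell, Aif1 by 1.19 ± 0.14, Tfec by 1.02 ± 0.18 and Mrc1. The summed linear level of the 26 genes, in units of the 75th percentile, was 2087 and 1933 in WT and 1937 and 1794 in KO cells, and the groups overlapped.

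Genes of neutrophil granules were higher in KO cells. Of 25 measured, 15 rose and 0 fell (60.0% called, against 3.1% of all genes), with a median difference of 1.09. The granule peptide gene Camp stood at -1.47 and -1.56 in WT and at 1.01 and 0.71 in KO cells, a rise of 2.37 ± 0.20 (adjusted p = 0.00413), and lactoferrin (Ltf) at -1.17 and -0.97 against 1.29 and 0.67 (2.05 ± 0.26, adjusted p = 0.0159). The resistin-like gene Retnlg went from -6.76 and -6.40, with only 1 WT array well above background, to -2.46 and -3.13 (3.78 ± 0.31, adjusted p = 0.00394). In all 3 genes the KO samples lay above the WT samples, and KO replicate 1 lay above KO replicate 2. The calprotectin chain S100a9 rose by 1.71 ± 0.18, Ngp by 1.25 ± 0.22 and the surface protein Cd177 by 2.00 ± 0.26. The 6 further rises ranged from 0.89 to 1.63. Lipocalin Lcn2 (0.97 ± 0.21, adjusted p = 0.0692), Ly6g (0.22), the receptor of granulocyte colony-stimulating factor Csf3r (0.29) and Anxa1 (-0.15) were not called. Stfa2, the lowest difference of the list, stood at -2.41 and -2.62 in WT and at -4.01 and -3.97 in KO cells and was not called either (-1.47 ± 0.39, adjusted p = 0.124). With normexp correction 13 of the 25 genes were called higher and 1 lower, and with only the 4 untreated arrays 6 and 1. Anxa1 and Csf3r were the brightest of the list. The summed linear level was 293 and 237 in WT and 283 and 308 in KO cells with them, and 23.5 and 21.7 against 72.3 and 65.7 for the other 23 genes. Most of this smaller sum came from S100a9 (13.4 and 12.6 in WT, 44.4 and 40.7 in KO) and S100a8 (4.92 and 3.81 against 13.5 and 13.4). In bulk RNA, more cells of a type and more RNA per cell cannot be told apart. Fpr1, Fpr2 and Il1b, which neutrophils are also known to express and which are not in the list, rose as well, and the part of neutrophil RNA in those rises was not tested. Without WT untreated replicates 1 and 2 and KO untreated replicates 1 and 2 in turn, 4, 3, 2 and 3 of the 25 genes were called higher and 0 lower, Camp and Retnlg each time.

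Genes of earlier myeloid cells did not form a single pattern. Of 15 measured, 4 rose and 1 fell. The primary granule genes Mpo (-2.24 and -2.56 in WT, -1.29 and -2.09 in KO), Elane (4.92 and 5.12 against 4.37 and 4.48) and Prtn3 (0.53 ± 0.13, adjusted p = 0.0949) were not called. The granulocytic repressor Gfi1 rose by 1.79 ± 0.17, the progenitor factor Myb by 1.97 ± 0.31, with 1 WT array well above background, and Ms4a3 by 1.16 ± 0.20. Kit, the receptor of stem cell factor on progenitors and mast cells, went the other way, from -0.81 and -0.96 to -3.23 and -3.30, a log2 difference of -2.39 ± 0.21 (adjusted p = 0.00515). The summed level of the list was 53.7 and 56.1 in WT and 36.7 and 37.9 in KO cells. Most of this sum came from Elane, which was not called, so it does not describe the list as a whole. The median of the list, 0.53, was negative in the authors' deposited values, with and without the shift by their 75th percentiles.

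Osteoclast genes, which CSF1-grown cells can switch on, fell in 3 of 20 cases and rose in 1. The collagen-degrading cathepsin Ctsk stood at 3.42 and 2.96 in WT and at 1.76 and 1.90 in KO cells (-1.36 ± 0.23, adjusted p = 0.0378), the chloride transporter Clcn7 fell by 0.79 (SE 0.13) and the fusion protein Dcstamp by 0.75 (SE 0.14), while Mmp9 rose. Acp5, the tartrate-resistant phosphatase, had higher values in KO cells (4.12 and 4.19 against 2.77 and 2.56) and was not called (adjusted p = 0.0507). Among 18 dendritic cell genes Batf3 rose by 1.38 ± 0.16 and Irf4 and Cd24a (-1.38 ± 0.13) fell, whereas Itgax (-0.22 ± 0.21), Flt3 (-0.32 ± 0.19) and Zbtb46 (0.22 ± 0.16) were not called.

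Lymphocyte and natural killer genes were mostly dim. Cd3e stood at -0.49 and -0.77 in WT and at -1.05 and -0.93 in KO cells and Ncr1 at -6.08 or lower in all 4 samples, and neither was called. Klra8, which codes for the natural killer receptor Ly49H and is carried by some inbred strains only, was not well above background in WT and stood at -2.33 and -2.15 in KO cells, at least 33.5-fold higher (adjusted p = 0.00029). It belongs to a family of near-identical genes, whose other members measured here, Klra4 (-0.95) and Klra7 (-0.91), were not called. Klrd1 was at least 2.53-fold higher. The Cd8a probe stood at -6.91 and -7.49 in WT, at 6.20 in KO replicate 1 and at -6.34 in KO replicate 2, so a single spot set its mean, and it was not called. The summed level of the 27 genes was 53.0 and 51.6 in WT and 104 and 32.7 in KO cells with Cd8a, and 30.9 and 32.7 in KO cells without it.

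Of the remaining cell types, 1 of 11 mast cell, basophil and eosinophil genes was called, Kit, and Cpa3 and Fcer1a were not well above background on both arrays of any group. Of 13 erythroid and megakaryocyte genes 2 rose, Epor (1.11 ± 0.16) and Ppbp, and Vwf fell (-0.95 ± 0.17), while Hba-a1 differed by 0.25 ± 0.17. Of 22 stromal and endothelial genes 5 rose and 1 fell. Pdgfrb rose by 1.68 ± 0.19 and Cdh5 by 1.20 ± 0.21, with Cxcl12 above. Emcn and Postn were not well above background in WT and higher by at least 4.32-fold and at least 2.61-fold. Kdr went from 2.31 and 2.26 to 1.29 and 1.31 (-0.99 ± 0.15), while its other probe, at -0.51, was not called. The defining genes Col1a1 (-1.51 and -1.25 in WT, -1.53 and -1.26 in KO) and Pecam1 (0.06 ± 0.21) were not called, and the summed level of the list was 28.5 and 32.6 in WT and 32.2 and 27.8 in KO cells. Over all 9 lineage lists 32 of 171 genes rose and 8 fell, and without WT untreated replicates 1 and 2 and KO untreated replicates 1 and 2 in turn 8, 6, 5 and 6 were called higher and 2, 1, 1 and 0 lower.

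**Figure D4:**
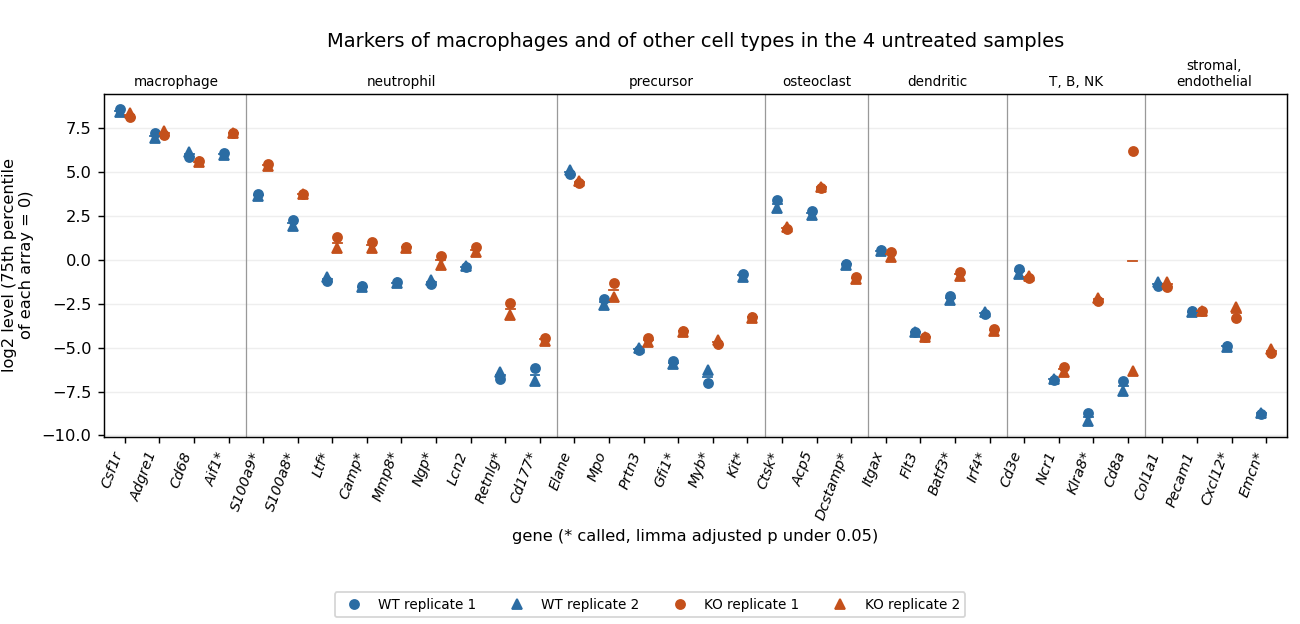
Log2 level above or below the array's 75th percentile (vertical axis) of markers of macrophages and other cell types in the 2 untreated WT (blue) and 2 untreated KO samples (orange), with circles for replicate 1, triangles for replicate 2, short lines for group means and asterisks for called genes. The macrophage markers Csf1r, Adgre1 and Cd68 lie together, the neutrophil genes shown are higher in both KO samples, Kit is lower, and Cd8a is high in KO replicate 1 only. The neutrophil genes shown are a part of their list and leave out Anxa1, Csf3r, Ly6g and Stfa2, which were not called.

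Of 39 measured G2/M genes 6 fell and 0 rose, and their median difference was -0.48, against 0.06 over all genes. The chromosome-associated kinesin Kif4 stood at -4.55 and -4.14 in WT and at -5.66 and -5.97 in KO cells (-1.47 ± 0.22, adjusted p = 0.0252), cyclin Ccnb2 at -0.76 and -1.07 against -1.99 and -2.07 (-1.12 ± 0.20, adjusted p = 0.041), and the mitotic kinase Plk1 at 0.05 and 0.04 against -1.04 and -1.0 (-1.07 ± 0.12, adjusted p = 0.0122). The KO samples lay below the WT samples in each. Kif23 (-0.96 ± 0.17), the separase Espl1 (-0.90 ± 0.15) and Nusap1 (-0.88 ± 0.16) fell as well. The proliferation marker Mki67 overlapped between the groups (-0.02 ± 0.21), and Cdk1 stood at 0.70 and 0.28 in WT and at 1.02 and 1.21 in KO cells, not called. All 6 calls ended without any 1 of the 4 untreated samples, and the medians of the list were then -0.42 to -0.46. Of 37 replication genes only Uhrf1 was called (-0.75 ± 0.13), and Mcm2 (-0.37 ± 0.13) and Pcna (0.08 ± 0.18) were not. Among cyclins and their inhibitors Cdkn2b rose from -2.50 and -2.48 to -0.53 and -0.51 (1.97 ± 0.20, adjusted p = 0.00764) and Cdkn1c fell by a log2 change of -1.02 (SE 0.14), while Ccnd1 (-0.06 ± 0.15) and Cdkn1a (0.70 ± 0.23, adjusted p = 0.156) were not called. Of 25 cell death genes 2 rose, Bcl2a1d (1.32 ± 0.19), which has near-identical copies, and Bmf (0.73 ± 0.13).

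TTTGAA, the core of the element through which many mitotic genes are repressed in resting cells, was held by 13.4% of the promoter windows of genes tested and by 27 of the 36 windows of the G2/M genes (75%), including those of 5 of the 6 called genes. The 2 called genes with a match before the start are shown, chosen after their values were seen, with the match in capitals 167 bases before the start in Ccnb2 (chr9:70421676-70421761, minus strand) and 27 bases before it in Espl1 (chr15:102296226-102296292, plus strand). The window of Ccnb2 held 2 matches, and the other, not shown, does not lie wholly before the start.
Ccnb2: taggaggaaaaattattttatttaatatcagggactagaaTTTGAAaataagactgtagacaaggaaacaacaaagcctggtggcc
Espl1: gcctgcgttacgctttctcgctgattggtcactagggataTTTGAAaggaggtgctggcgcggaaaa

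Of 311 metabolic genes 14 rose and 12 fell (8.36% called). None of 37 respiratory chain genes and none of 36 proteasome and autophagy genes was called (limma, 1 and 6 with an unadjusted p under 0.05), and their differences stayed between -0.28 and 0.45 and between -0.26 and 0.82. Solute transporters stood out in both directions, with 7 higher and 4 lower of 37. The monocarboxylate transporter gene Slc16a9 went from -6.03 and -5.83 in WT to -0.09 and -0.29 in KO cells (5.73 ± 0.48, adjusted p = 0.00412) and the glycine transporter Slc6a9 from -1.12 and -1.08 to 1.85 and 1.85 (2.95 ± 0.16, adjusted p = 0.000992). The anion exchanger Slc4a3 fell from -3.35 and -3.47 to -6.43 and -6.63 (-3.12 ± 0.37, adjusted p = 0.0129), while its other probe differed by -0.85 and was not called. The glutamate transporter Slc1a2 fell by a log2 change of -2.45 (SE 0.18), but its other probe, at 1.47 and not called, had the opposite sign. The glucose transporter Slc2a1 rose by 1.02 ± 0.12. The glycolytic enzyme gene Eno2 (-1.06 ± 0.19) and the lactate transporter gene Slc16a1 (-0.74 ± 0.12) fell, and Ldha (-0.01 ± 0.15) was not called.

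Of lipid handling genes 3 of 38 rose, the cholesterol exporter Abca1 by 0.96 ± 0.13, Apoc1 by 1.17 ± 0.15 and Cd36, and Acadl, of fatty acid oxidation, fell by 0.80 (SE 0.12). Only Mylip, the ligase that degrades the LDL receptor, rose among 28 cholesterol genes (1.03 ± 0.12), and its other probe differed by 0.34 and was not called. The serine synthesis enzyme Phgdh fell by a log2 change of -1.19 (SE 0.14), and with Chac1 made up the 2 falls among 28 ATF4 and unfolded protein genes, while Atf4 itself differed by -0.11 ± 0.18. The inducible heat shock gene Hspa1a went from -0.56 and -0.59 to -2.02 and -1.88 (-1.37 ± 0.12, adjusted p = 0.00529). It has a near-identical copy, Hspa1b. The small heat shock genes Hspb1 (0.86 ± 0.14) and Cryab (0.80 ± 0.13) rose. Of 39 lysosomal genes only Ctsk was called. In the purine list, adenosine deaminase Ada, which clears adenosine, stood at 4.38 and 4.17 in WT and at 1.51 and 1.45 in KO cells (-2.79 ± 0.13, adjusted p = 0.000859), and xanthine dehydrogenase Xdh rose by 0.99 ± 0.14. Of the metabolic calls named, those of Slc16a9, Slc6a9, Slc1a2 and Ada were made without any 1 of the 4 untreated samples. Without WT untreated replicates 1 and 2 and KO untreated replicates 1 and 2 in turn, 4, 5, 4 and 3 of the 311 genes were called higher and 4, 4, 3 and 3 lower.

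Of 32 angiogenic and coagulation genes 5 rose and 1 fell. Endothelin 1 (Edn1), a vasoconstrictor peptide, was not well above background in WT and at least 3.94-fold higher in KO cells, and its receptor gene Ednrb went from -3.54 and -3.37 to -0.54 and -0.87 (2.75 ± 0.16, adjusted p = 0.00135). The protein C receptor Procr rose by 1.46 ± 0.16, and Vegfa stood at 0.92 and 1.27 in WT and at 2.14 and 1.93 in KO cells without being called (adjusted p = 0.0628). Of 19 clock genes Nfil3 rose (0.92 ± 0.15) and Npas2 (-0.87 ± 0.14) and Bhlhe40 (-0.87 ± 0.15) fell, while Arntl (0.37 ± 0.16) and Per1 (0.22 ± 0.14) were not called. Without any 1 of the 4 untreated samples the calls of Edn1 and Ednrb were made, and those of Procr and the clock genes ended without at least 1.

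The genes with the largest changes, apart from those above, included further transport and surface genes. Slc13a3, a sodium-coupled carboxylate transporter, stood at 3.40 and 3.39 in WT and at 7.23 and 7.13 in KO cells, a rise of 3.78 ± 0.17 (adjusted p = 0.000859). Jmjd7 went from -6.62 and -6.04, with 1 WT array well above background, to -1.26 and -1.41 (5.0 ± 0.28, adjusted p = 0.00119), but after LPS its difference was 0.40. Asb4, an adaptor of cullin 5 ligases, rose by 3.42 ± 0.16 and the activating receptor Tarm1 of myeloid cells by 3.39 ± 0.27. The other probe of Asb4 differed by -0.15 and was not called. Cingulin (Cgn) rose by 3.29 ± 0.31, Lrrc4 by 3.20 ± 0.26 and Raver2 by 3.99 ± 0.51. Slc22a23 and Fbxw26 were not well above background in WT and higher by at least 12.3-fold and at least 15.3-fold, with uneven replicates.

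Among the largest falls, the co-chaperone gene Dnajb3 stood at -3.49 and -3.39 in WT and was not well above background in KO cells, at least 14.9-fold lower (adjusted p = 0.00029). Melanophilin (Mlph) was at least 8.98-fold lower and Trim58 at least 5.05-fold lower. Syndecan Sdc4, a heparan sulphate proteoglycan, went from 4.49 and 4.45 to 2.28 and 2.41 (-2.13 ± 0.13, adjusted p = 0.0014), and Cd200, whose product quietens myeloid cells, from -0.48 and -0.68 to -2.90 and -2.75 (-2.24 ± 0.14, adjusted p = 0.00146). Both were lower in each KO sample by more than 2 log2 units. Deiodinase Dio2, which activates thyroid hormone, fell by a log2 change of -2.59 (SE 0.16), Ramp1, a subunit of the CGRP receptor, by one of -2.26 (SE 0.15), Gprc5b by one of -2.14 (SE 0.12), Bex1 by one of -2.11 (SE 0.17) and Proser2 by one of -2.86 (SE 0.25). Other probes of Ramp1 (-0.10 and -0.64), Proser2 (-0.67), Gprc5b (-1.47) and Bex1 (-1.61) had the same sign and were not called. Of these, the calls of Slc13a3, Jmjd7, Asb4, Tarm1, Lrrc4, Dnajb3, Sdc4, Cd200, Dio2, Ramp1, Gprc5b, Bex1 and Proser2 were made without any 1 of the 4 untreated samples.

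**Figure D5:**
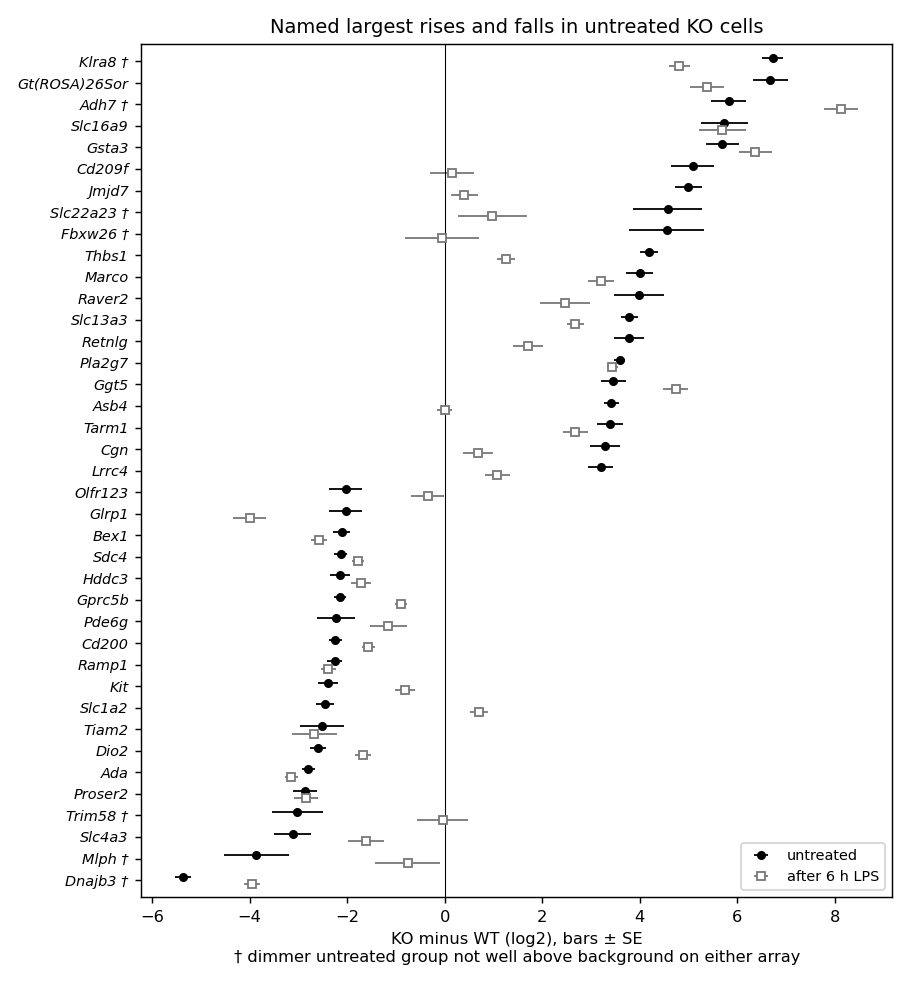
KO minus WT difference (log2, bars ± SE) of the 20 named largest rises and 19 named largest falls, at rest (black circles) and after 6 hours of LPS (open squares), with daggers at genes whose dimmer untreated group had no array well above background. Gsta3, Slc16a9, Pla2g7, Ada and Ramp1 lie close to their values at rest after LPS, while Cd209f, Jmjd7 and Asb4 lie near 0.

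Several of these genes lie near the Cul3 locus on chromosome 1. Within 10 Mb on either side of its probe 235 genes were tested, with 6 higher and 4 lower, among them Ugt1a6a, Slc11a1, Cxcr2, Dnajb3 and Slc4a3. That is 4.26%, against 3.20% on chromosome 1 and 3.1% of all genes. Within 5 Mb it was 1 higher and 1 lower of 82 (2.44%). Around Gt(ROSA)26Sor on chromosome 6, 6 of 199 genes within 10 Mb were higher and 3 lower, among them Cxcl12, Clec4b1 and Bhlhe40. That is 4.52%, against 3.90% on chromosome 6. The part of position in these calls was not tested. Of the 582 genes called higher at rest, 263 were also called higher in KO cells after LPS, and of the 285 called lower, 160 were also called lower. The share of all genes called after LPS is not given here, so an excess over it is not shown. The 2 comparisons use different samples but share 1 estimate of the spread.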

How the data were processed

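RNA of 8 samples in 4 groups of 2 was measured on 1-colour arrays of 1 slide and 1 scan. Per the submitters' processing notes, the authors used Agilent Feature Extraction 10.7.3.1 to obtain spot intensity values. Per the file headers, the processed signal was background-subtracted and detrended within each array, and not scaled across the slide. Log2 values of 26670 of 55681 probes stood in the deposited value table, with medians per array of 10.94, 11.11, 10.68, 10.73, 11.11, 11.04, 10.86 and 10.74 (replicates 1 and 2 of untreated WT, LPS-treated WT, untreated KO and LPS-treated KO). They differed from the log2 signal by a median of at most 0.0155, so they carried no scaling or centring, and how their probes were selected is unknown.

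Here log2 processed signals were averaged per probe, leaving out control and outlier-flagged spots, and reduced by each array's 75th percentile. The 39870 probes kept were well above background on both arrays of 1 group or more, and each gene was represented by whichever probe was brightest on average across the 8 arrays. Of the 27960 genes, 476 had a missing array. Genes were named through RefSeq accessions (26056 probes), symbols (3200) or synonyms (930), or as in the files (25495). Group means of all 8 arrays were fitted in limma 3.58.1 (R 4.3.3, 4 residual and 2.41 prior degrees of freedom) with p-values adjusted by Benjamini-Hochberg across the genes tested and called under 0.05, after the procedure was tested on simulated data. A dim group's fold is a bound, taken against its own signal or, where higher, the dimmest signal of any probe well above background. The number of arrays, 2 a group, limits the precision.

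The members of the 48 gene lists, the comparison and the rule for named genes were chosen with earlier results of these data known. That rule named Cul3, then the 20 largest rises and falls with a gene symbol and groups that did not overlap, the first 3 measured members of each list, up to 6 called members per direction and, for a list without calls, the member of lowest p, and the text drops some. A few genes that the rule named are not reported here and are left out of the counts of named genes. S100a8, Ly6g, Csf3r, Anxa1, Stfa2, Cd8a, Klra4 and Klra7 were named after their values were seen. Alternatives were other scalings, background corrections, filters, blocks, moderation and leaving out each array. Same-numbered samples did not deviate together (correlation of replicate 1 deviations between untreated WT and KO -0.09), so no block was used.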

Additional observations from a re-analysis of the deposited data

Results flagged for a closer look

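Among the 175 named genes called at rest, 53 had a KO minus WT difference after LPS that differed from the one at rest (limma, contrast of the differences, adjusted p under 0.05 over all genes tested). Of all 867 genes called at rest, 239 did. All of them were chosen by their difference at rest, which the contrast subtracts. That choice by itself favours a smaller or reversed difference after LPS, and its part was not tested. The values below are the difference after LPS minus the difference at rest, on the log2 scale, in 2 samples a group.

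Among the 53 genes, 26 of those higher in KO cells at rest had a difference below 0 after LPS, which by itself is no called fall. In some of them that difference after LPS was near 0, at -0.19 for Procr, -0.05 for Slc2a1 and -0.0006 for Asb4. Cytokine and chemokine genes were among them, Il10 (-2.64), Cx3cl1 (-2.11), Il1a (-1.97), Il1b (-1.74), Tgfb3 (-1.34) and Ebi3 (-1.30). So were Edn1 (-4.91), Cd40 (-2.71), Batf3 (-2.30), Dusp2 (-1.66), Nfil3 (-1.59), Cdh5 (-1.80), Procr (-1.65) and Mmp13 (-1.65). After LPS the difference itself was -1.62 for Il10, -1.35 for Cx3cl1, -1.85 for Edn1, -1.03 for Cd40, -0.92 for Batf3 and -1.19 for Adamts4, each called lower. The interferon-stimulated Oasl1 (-1.70) and Ifi44 (-1.31), Bcl2a1d (-1.69), Bcl3 (-1.11), Ly86 (-1.31), Hpgd (-1.17), Slc2a1 (-1.07) and Gfi1 (-2.01) also belonged to the 26, without a called fall after LPS. Emcn (-3.71), Asb4 (-3.42), Myb (-3.21) and Adamts4 (-3.14) complete the 26. Levels of Edn1, Emcn and Adamts4 in untreated WT cells were not well above background, so the sizes of their values are not measured.

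A difference of the same sign, fitted as smaller after LPS, was found for 12 genes. These were Cd209f (-4.93), Jmjd7 (-4.60), Thbs1 (-2.93), Cgn (-2.60), Mgst2 (-2.14), Lrrc4 (-2.12), Klra8 (-1.91), Fpr1 (-1.75), Fpr2 (-1.75), Cp (-1.58), Timd4 (-1.51) and Mylip (-0.93). Klra8 and Timd4 were not well above background in untreated WT cells, so their differences at rest are bounds, and a smaller one after LPS is not shown for them. It was larger after LPS for 4 genes, of which 3 are redox genes, Gclc (1.31), Gstm2 (1.28) and Nqo1 (0.91), and the fourth is Slc6a9 (1.40).

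Of the genes lower at rest, 6 had a difference above 0 after LPS, Slc1a2 (3.16), Slc7a2 (1.71), Dcstamp (1.41), Espl1 (1.34), Bhlhe40 (1.16) and Uhrf1 (1.05). It stayed below 0 and was nearer to it for Kit (1.57), Gprc5b (1.25), Phgdh (1.1) and Cd24a (0.93). The fitted value of Dnajb3 (1.41) rests on untreated KO cells in which it was not well above background, and its size is not measured.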

How the results depend on the processing

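The count of 867 called genes (582 higher and 285 lower) moved by over 1.5 times under many alternatives. It was 2250 (1255 and 995) with normexp background correction, 1303 (1036 and 267) in the authors' log2 values, 1414 (719 and 695) once each array of theirs was reduced by its 75th percentile, 362 (269 and 93) with no filter, which tested 36310 genes, and 1313 (782 and 531) with genes above background on all 8 arrays. It was 496 (343 and 153) with only the 4 untreated arrays, 127 (96 and 31) with slide column as a block, 1760 (1045 and 715) with trended moderation, 2301 (1426 and 875) with array weights and 180 (142 and 38) at an adjusted p of 0.01. Leaving out 1 array gave 114 to 1211 calls (94 to 767 higher and 20 to 444 lower). The lowest counts came without an untreated array, whose group then rests on 1 sample assumed to vary like the others. The count was 1211 without either WT LPS replicate and 492 without either KO LPS replicate. The replicate numbers do not pair the samples, and with the replicate block 366 genes (270 and 96) were called. The causes were not tested. With quantile normalization, median centring, the mean of a gene's probes, each probe by itself, robust moderation and the added percentile without outlier spots, chosen after seeing the data, counts stayed within 1.5 times. Of the 175 named called genes reported here, 0 changed sign under the alternatives that give each gene 1 value, but other probes of Asb4 (-0.15) and Slc1a2 (1.47), not called, had the opposite sign. Another probe was kept for 34 of the 175. Of these other probes 15 were called the same way, 22 had the same sign without a call and 0 were called the other way. Cul3 was not called under any. Of the 175, 42 were called without each untreated array in turn. A larger number ended whichever of the untreated arrays was left out. With 2 samples a group, the smallest difference called was 0.63, and dim levels give bounds only.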

Other observations

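Outside the lists, and chosen after their values were seen, further surface and secreted genes were among the 91 that were called without any 1 of the 4 untreated samples. The protease inhibitor Slpi stood at 0.81 and 0.47 in WT and at 3.31 and 3.28 in KO cells, a rise of 2.66 ± 0.17 (SE, limma, adjusted p = 0.00159), and the LPS-binding protein gene Lbp rose by 2.37 ± 0.18. Of the triggering receptor-like genes, Treml2 rose by 2.70 ± 0.16, Treml1 by 2.34 ± 0.16 and Treml4 by 1.51 ± 0.12, and after LPS their differences were -0.10, 1.38 and 2.72. The zinc transporter Slc39a4 went from 2.54 and 2.31 to 5.20 and 5.21 (2.78 ± 0.22, adjusted p = 0.00355), and the fibrinogen-like gene Fgl2 from 0.10 and 0.42 to 3.37 and 3.1 (2.97 ± 0.20, adjusted p = 0.0018). In each of these genes the groups did not overlap.

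Further genes of the 91 were dim. In WT cells Esm1, Mmrn2 and Heg1 were not well above background. In KO cells they were higher by at least 8.78-fold, 6.91-fold and 7.51-fold. The OX40 ligand gene Tnfsf4 was at least 4.44-fold higher at rest, and its difference after LPS was -2.85. The Wnt receptor Fzd1 rose by 2.78 ± 0.14 and the chemokine receptor Ccr6 by 1.86 ± 0.14.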
